A study of Mus musculus with 4 samples.

Results

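In wild-type mouse embryos of stage e11.5 the lateral nasal process (LNP) and the medial nasal process (MNP) differed at least 2-fold in 335 genes, 67 of them higher in the LNP and 268 higher in the MNP. The genes were taken from 43346 gene entries in 2 steps. A gene had to reach 5 CPM, with counts scaled so that each library sums to 1000000, in either nasal library, as 12163 genes did, and its levels in the 2 libraries had to lie at least 2-fold apart after 0.5 CPM had been added to each. The genes called in this way made up 0.551% of the tested genes in the LNP and 2.2% in the MNP direction. Since these levels chose the genes, their folds are a description.

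The series holds bulk RNA-seq of 4 facial processes, with 1 library of mixed cell types from each. All were dissected from wild-type embryos (genotype WT) of the same stage, and neither the strain nor the number of embryos in a library is given in the sources used here. Libraries of the maxillary (Mx) and mandibular (Md) process did not enter the choice of genes and are given beside the nasal values. The MNP sample is named as the medial nasal process in its title and tissue, although the abbreviation that its tissue label carries is LNP. Since no process had a replicate library, differences have no replicate check and no test, and every interval is a 95% interval that covers counting error only. In bulk tissue, fewer cells of a type and less RNA per cell cannot be told apart.

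The nasal processes are the horseshoe of tissue that grows up around each nasal pit. The lateral process becomes the side of the nose and borders the eye. The medial process becomes the tip and the midline of the nose and the middle of the upper lip, and it borders the forebrain. Both consist of neural crest mesenchyme under surface ectoderm, and the ectoderm of the pit forms the olfactory epithelium. Retinoic acid, hedgehog, FGF, BMP and Wnt signals from the ectoderm and the forebrain pattern this mesenchyme.

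Expected counts summed to 16163913 in the LNP and 13216190 in the MNP library. A level of 5 CPM corresponded to 80.8 and 66.1 counts, and 3 counts, the limit that a count of 0 allows, to 0.186 and 0.227 CPM. The median log2 difference over all tested genes was 0.01. Gene lists are counted below over members with at least 1 CPM in a nasal library, while a call needs 5 CPM. Of all 15691 genes with at least 1 CPM, 67 were called higher in the LNP and 268 in the MNP. A lower level in the LNP was found for 8176 of the 15691 and a higher one for 7515. Genes called higher in the LNP had a median level of 14.1 CPM there, and those called higher in the MNP 10.9 CPM, against 35.6 CPM for the higher library over all tested genes. Of the called genes, 16 in the LNP and 41 in the MNP direction were at least 4-fold apart, and 45 and 144 had an interval that lay wholly beyond 2-fold. Erythroid genes, a sign of blood in the tissue, summed to 5035 CPM in the LNP and 3276 CPM in the MNP library, with 0 called, and their part in the result was not tested.

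**Figure D1:**
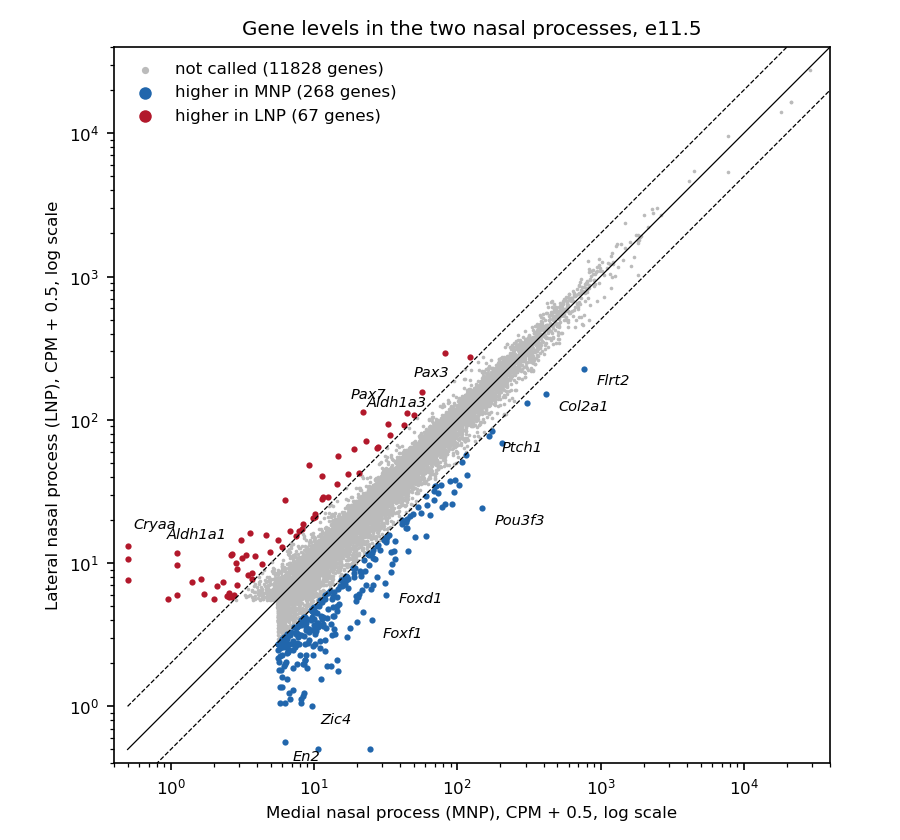
Level of each of the 12163 tested genes in the MNP (x axis) and LNP (y axis), as CPM plus 0.5 on log scales, with 1 library per process. The solid line marks equal levels and the dashed lines 2-fold differences, and 67 genes lie beyond the upper and 268 beyond the lower dashed line.

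The labels were compared with 5 marker genes, whose differences are part of the choice. Pax7, a paired-box transcription factor of neural crest derivatives, lies on chromosome 4 from 139737062 to 139833528 of GRCm38. It stood at 113 CPM in the LNP, 21.6 CPM in the MNP, 4.03 CPM in the Mx and 3.44 CPM in the Md library. It was thus highest in the LNP, 5.23-fold above the MNP (interval 4.62 to 5.95). Aldh1a3, which encodes a retinoic acid synthesis enzyme of the nasal and eye region, lies on chromosome 7 from 66390890 to 66427517. Its levels were 93.2, 32.2, 16.8 and 3.51 CPM in the same order, 2.9-fold apart between the nasal libraries (interval 2.6 to 3.23). Both genes were higher in each nasal than in either other library.

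The forkhead gene Foxf1, a hedgehog-responsive factor of mesenchyme, lies on chromosome 8 from 121084386 to 121088144. It stood at 3.53 CPM in the LNP, 24.8 CPM in the MNP, 14 CPM in the Mx and 31.8 CPM in the Md library, and was 7.04-fold higher in the MNP than in the LNP (interval 5.3 to 9.5). The LNP library was thus the lowest of the 4. Foxd1, a forkhead gene of facial mesenchyme and of the retina, lies on chromosome 13 from 98354242 to 98359305. Its levels were 5.51, 31.2, 5.85 and 21.9 CPM in the same order, a difference of 5.68-fold between the nasal libraries (interval 4.5 to 7.22). Here the MNP and Md libraries were high and the other 2 low. Zic4, a zinc finger gene of the dorsal neural tube and midline, lies on chromosome 9 from 91362413 to 91389348. It reached 9.23 CPM in the MNP and 0.512, 0.39 and 0.292 CPM in the LNP, Mx and Md libraries. The nasal levels were 18-fold apart (interval 9.17 to 44.2), from 8.27 estimated counts in the LNP library.

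The 250 bases before a RefSeq start of 5 called genes are printed 5′ to 3′ on the strand of each gene, on GRCm38.p6. A RefSeq start need not be the end of the span given for the gene above. The Pax7 and Zic4 sequences lie inside those spans. Pax7 and Foxd1 are shown as markers of the LNP and the MNP side, Fendrr as the neighbour of Foxf1, and Zic1 and Zic4 as a pair of neighbours that were called together. Capitals mark a match to the forkhead motif TGTTTAC on either strand, which was found in the Fendrr sequence alone among these 5, 129 bases before the start and read on the opposite strand. The sequences come from chr4:139832969-139833218, chr13:98353995-98354244, chr8:121083111-121083360, chr9:91365769-91366018 and chr9:91368722-91368971, and those of Pax7, Fendrr and Zic1 are on the minus strand.
Pax7: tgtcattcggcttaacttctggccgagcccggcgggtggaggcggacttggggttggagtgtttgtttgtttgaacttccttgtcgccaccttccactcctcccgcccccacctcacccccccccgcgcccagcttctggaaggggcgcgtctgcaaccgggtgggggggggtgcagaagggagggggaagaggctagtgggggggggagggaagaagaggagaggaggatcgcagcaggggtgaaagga
Foxd1: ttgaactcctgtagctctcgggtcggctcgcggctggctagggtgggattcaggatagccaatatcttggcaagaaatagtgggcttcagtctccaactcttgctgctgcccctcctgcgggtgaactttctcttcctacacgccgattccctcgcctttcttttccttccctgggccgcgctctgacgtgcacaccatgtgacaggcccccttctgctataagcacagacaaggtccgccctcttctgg
Fendrr: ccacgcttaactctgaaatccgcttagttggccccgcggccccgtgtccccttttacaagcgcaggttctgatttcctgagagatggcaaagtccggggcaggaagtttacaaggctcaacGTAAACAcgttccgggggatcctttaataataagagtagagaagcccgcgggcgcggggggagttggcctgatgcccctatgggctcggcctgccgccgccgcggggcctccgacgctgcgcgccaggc
Zic1: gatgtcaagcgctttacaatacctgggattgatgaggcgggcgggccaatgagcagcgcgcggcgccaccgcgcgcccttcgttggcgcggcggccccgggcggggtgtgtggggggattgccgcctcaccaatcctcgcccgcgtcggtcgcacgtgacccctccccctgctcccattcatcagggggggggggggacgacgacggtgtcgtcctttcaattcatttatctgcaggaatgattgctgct
Zic4: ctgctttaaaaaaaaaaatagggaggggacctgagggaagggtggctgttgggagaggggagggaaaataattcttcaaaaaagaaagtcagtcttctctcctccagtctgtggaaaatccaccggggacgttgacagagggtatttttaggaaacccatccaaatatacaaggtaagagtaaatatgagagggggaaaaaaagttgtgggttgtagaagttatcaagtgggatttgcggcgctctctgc

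The transcription factors named here as called higher in the LNP belong to several families and several gene lists. Pax3, the paralog of Pax7, stood at 156 CPM in the LNP, 56.4 CPM in the MNP, 68.5 CPM in the Mx and 29.1 CPM in the Md library. Its nasal levels were 2.76-fold apart (interval 2.55 to 3.003). Gsc, a homeobox gene of the jaw and inner ear region, stood at 27.2 CPM in the LNP and 5.83 CPM in the MNP, 4.66-fold apart (interval 3.65 to 6.02). It was higher still in the Md process, at 48.8 CPM, and reached 16.4 CPM in the Mx process. Pax1, a gene of sclerotome and pharyngeal pouches, had 10.9 and 2.12 CPM in the LNP and MNP libraries and its highest level, 23.3 CPM, in the Mx library. Irx5, an Iroquois homeobox gene, had 41.6 and 16.6 CPM. Its relative Irx3 had 38.6 and 21.4 CPM and was not called. Tbx15, a T-box gene of limb and head skeleton, had 16.3 and 6.36 CPM in the nasal libraries and 77 and 30.8 CPM in the Mx and Md libraries. The MNP library was thus the lowest of the 4 for Gsc, Pax1 and Tbx15.

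Transcription factors of the same lists called higher in the MNP were led by Pou3f3, a POU-domain factor. Its level was 23.6 CPM in the LNP, 148 CPM in the MNP, 190.0 CPM in the Mx and 56.2 CPM in the Md library. The LNP library stood lowest and lay 6.28-fold below the MNP library (interval 5.63 to 7.03). Shox2, a homeobox gene of palate and limb growth, followed the same order of libraries at 8.1, 34, 45 and 27.8 CPM in the LNP, MNP, Mx and Md libraries. Six2, a progenitor factor of the frontonasal mesenchyme, was highest in the MNP at 103 CPM and stood at 34.4, 30.2 and 23 CPM in the LNP, Mx and Md libraries. Alx1 and Alx4, aristaless-related homeobox genes of the frontonasal mesenchyme, were not called. They stood at 268 and 302 CPM in the LNP and 272 and 285 CPM in the MNP. The T-box gene Tbx3 had 30.6 and 94 CPM in the nasal libraries, and the zinc finger gene Sall1 had 4.95 and 19.1 CPM. Of the 24 measured genes on the list of nasal patterning factors, 23 of which reached 5 CPM, 2 were called higher in the LNP and 3 in the MNP. The median log2 difference of the 24 was -0.01, against -0.02 over all genes with at least 1 CPM. The sign of this median changed with the scaling, to 0.05 with TPM and 0.014 with TMM factors. Gsc, Irx5, Pou3f3 and Shox2 are not on this list but on that of Dlx and first arch homeobox genes. Of its 16 measured genes, 13 of which reached 5 CPM, 2 were called higher in the LNP and 4 in the MNP. Tbx15 and Tbx3 are on the T-box list, where 10 genes were measured and 5 reached 5 CPM, with 1 called in each direction.

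Forkhead and Zic genes leaned to the MNP side. Of 18 measured forkhead genes, 13 of which reached 5 CPM, 4 were called higher in the MNP and 0 in the LNP. A lower level in the LNP was found for 15 of the 18, with a median log2 difference of -0.66. Over all genes with at least 1 CPM, 8176 of 15691 were lower in the LNP. Foxf2, the paralog of Foxf1, stood at 2.66, 12.9, 10.6 and 20.8 CPM in the LNP, MNP, Mx and Md libraries. It shared with Foxf1 the lowest level in the LNP and the highest in the Md library. Foxd2 stood at 3.77, 13.3, 2.79 and 10.2 CPM in the same order, with the same high and low libraries as its paralog Foxd1. Foxc1 and Foxc2, which act in head mesenchyme and vessels, had 42.7 and 6.25 CPM in the LNP and 62 and 12.6 CPM in the MNP and were not called. Foxl2, a gene of eyelid mesenchyme, was on the other side at 1.98 and 0.681 CPM, below the level needed for a call.

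All 5 Zic genes had a lower level in the LNP, and 3 of them were called. Zic1 stood at 6.81 CPM in the LNP, 30.7 CPM in the MNP, 1.1 CPM in the Mx and 0.658 CPM in the Md library. Zic2 stood at 1.36, 6.66, 1.04 and 0.512 CPM. In both cases the LNP level was the next highest after the MNP one. Zic5 stayed below 5 CPM in the MNP, at 4.54 CPM, against 1.11 CPM in the LNP.

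Retinoic acid is made by aldehyde dehydrogenases, broken down by Cyp26 enzymes and read by nuclear receptors. Of 18 measured genes of this pathway, 16 of which reached 5 CPM, 2 were called higher in the LNP and 0 in the MNP, both of them synthesis enzymes. Besides Aldh1a3, this was Aldh1a1, which stood at 11.2 CPM in the LNP, 0.605 CPM in the MNP, 2.66 CPM in the Mx and 0.512 CPM in the Md library. Its nasal levels were 18.5-fold apart (interval 9.19 to 43.5). On the length-corrected TPM scale, Aldh1a3 stood at 29.98 and Aldh1a1 at 5.07 in the LNP and at 9.86 and 0.26 in the MNP. Aldh1a3 was thus the more abundant of the pair in both. Aldh1a2, the enzyme of trunk and heart mesoderm, had 22.4 and 30.7 CPM in the nasal libraries and was not called. Rdh10 and Dhrs3, which interconvert retinol and retinal, had 36.4 and 21.9 CPM in the LNP and 24 and 11.3 CPM in the MNP. Cyp26b1, which breaks retinoic acid down, lay the other way at 54.3 and 101 CPM. Rarb, the receptor gene that retinoic acid itself induces, had 87.4 and 45.7 CPM. Rarb and Cyp26b1 missed the 2-fold limit, and Rara and Rarg had 43.2 and 99.8 CPM in the LNP and 48 and 104 CPM in the MNP. The median log2 difference of the pathway was -0.01, and 0.06 with TPM.

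**Figure D2:**
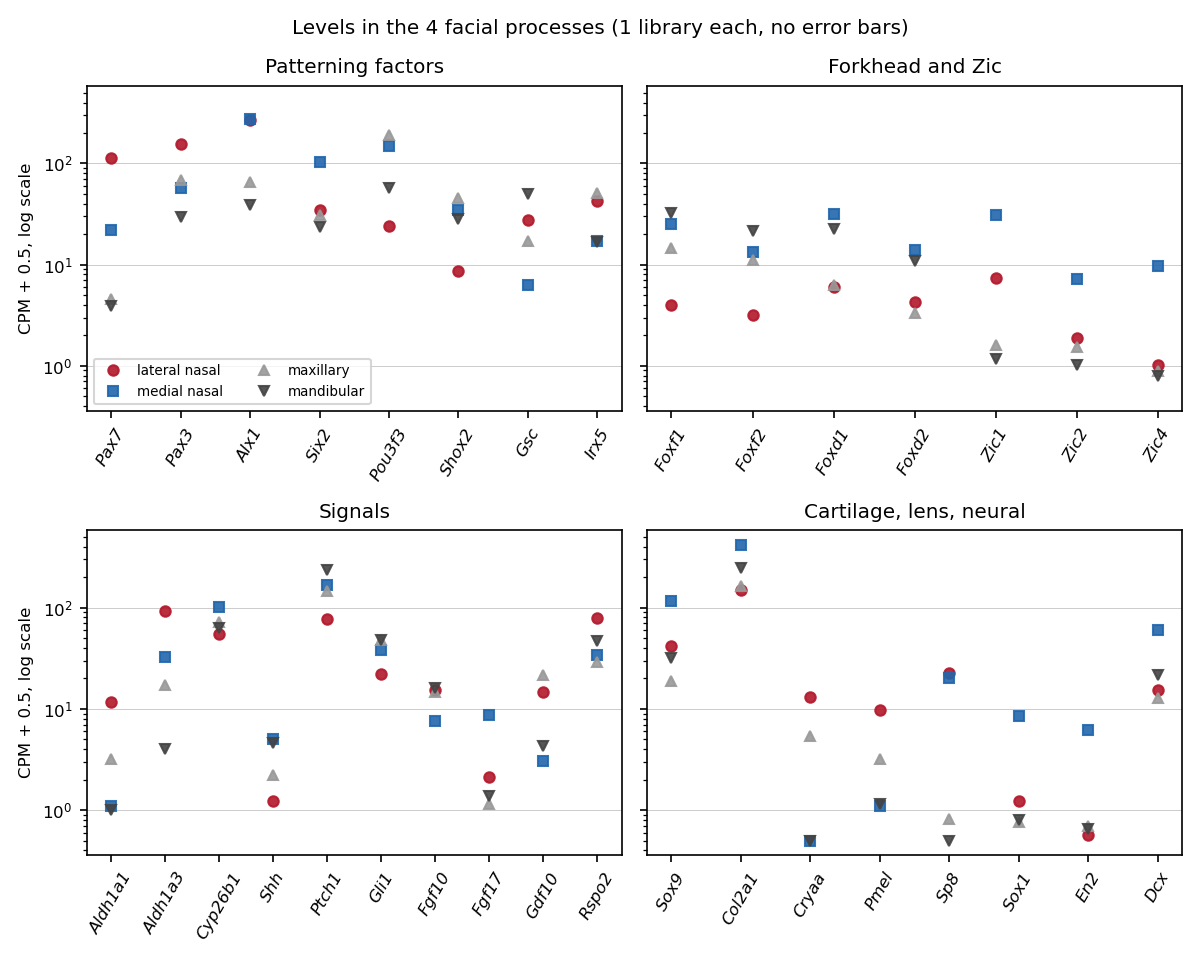
Levels (CPM plus 0.5, log scale) of patterning, signalling, cartilage, lens and neural genes in the 4 libraries, with 1 point per library and without error bars, since no process had replicates. Pax7 and Aldh1a3 lie highest in the LNP library (113 and 93.2 CPM), Foxf1 and Foxf2 lowest there, and Zic1 and Zic4 highest in the MNP library.

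Hedgehog signal is received by Ptch1, which is also a target of the pathway, and passed on by Gli factors. Ptch1 was the 1 gene called among 17 measured hedgehog genes, at 77 CPM in the LNP, 165 CPM in the MNP, 144 CPM in the Mx and 233 CPM in the Md library. The LNP library was the lowest, 2.15-fold below the MNP library (interval 2.001 to 2.3). Gli1, a target as well, had 21.7, 37.9, 47.1 and 47.4 CPM in the same order and was not called, with the LNP library again lowest. Shh, the ligand, stood at 0.742, 4.54, 1.73 and 4.09 CPM, under the 5 CPM minimum in all 4. Hhip, which encodes an inhibitor of the ligand, had 4.33 and 5.9 CPM in the LNP and MNP. The coreceptor genes Cdon, Boc and Gas1 had 324, 143 and 191 CPM in the LNP and 242, 98.2 and 151 CPM in the MNP. Of the 17 measured hedgehog genes 16 reached 5 CPM. The list median was -0.28, and -0.15 with TPM.

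Of 29 measured BMP genes, 23 of which reached 5 CPM, 3 were called, all higher in the LNP. Gdf10, a ligand of the family, stood at 14.1 CPM in the LNP, 2.57 CPM in the MNP, 21.1 CPM in the Mx and 3.8 CPM in the Md library. The Mx library was the highest, and the nasal levels were 5.48-fold apart (interval 3.81 to 8.11). Gdf7, a ligand known from the roof plate, had 6.56 and 2.42 CPM. Grem1, a secreted BMP inhibitor, had 18.3 and 7.87 CPM. Of the main ligands, Bmp4 had 59.6 and 41 CPM and Bmp7 78.2 and 58.2 CPM in the LNP and MNP. The response genes Id1, Id2 and Id3 had 65.5, 104 and 128 CPM in the LNP and 40.8, 67.3 and 78.7 CPM in the MNP. None of these 5 was called. Over the list, 19 of 29 genes had a higher level in the LNP and the median log2 difference was 0.34.

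Among 46 measured Wnt genes, 38 of which reached 5 CPM, 2 were called higher in the LNP and 1 in the MNP. Wnt16, a ligand, stood at 7.3 CPM in the LNP and 1.13, 0.455 and 0.585 CPM in the MNP, Mx and Md libraries. The LNP library was thus the highest, 6.43-fold above the MNP library (interval 3.75 to 11.9). Rspo2, which encodes an R-spondin that amplifies Wnt signals, had 78 and 33.4 CPM in the nasal libraries (2.33-fold, interval 2.09 to 2.61), with 28.5 CPM in the Mx and 46.2 CPM in the Md library. Lgr5, an R-spondin receptor, lay the other way at 14.1 and 30.2 CPM. The targets Axin2 and Lef1 had 91.7 and 110.2 CPM in the LNP and 83 and 66.7 CPM in the MNP, and neither was called. The list median was 0.01.

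Of 23 measured FGF genes, 19 of which reached 5 CPM, 1 was called higher in the LNP and 2 in the MNP. A lower level in the LNP was found for 19 of the 23, with a median log2 difference of -0.23. The 3 called genes encode ligands. Fgf10, a mesenchymal ligand, had 15, 7.04, 14 and 15.6 CPM in the LNP, MNP, Mx and Md libraries, so that the MNP library stood lowest. It was the called gene nearest to the limit on the LNP side. Fgf17 and Fgf15, ligands known from the anterior midline and the brain, had 1.61 and 1.91 CPM in the LNP and 8.17 and 6.1 CPM in the MNP. Fgf8, which marks the ectoderm around the nasal pit, had 5.2 and 6.2 CPM and was not called. The FGF target genes Dusp6, Spry1 and Spry2 had 128, 20.8 and 20.8 CPM in the LNP and 130.3, 20.4 and 22.9 CPM in the MNP, none called. Of 19 measured Notch genes, 17 of which reached 5 CPM, 1 was called higher in the LNP and 2 in the MNP. A lower level in the LNP was found for 15 of the 19, and the median was -0.33. The effector gene Hey2 was called higher in the LNP, at 40.2 and 10.9 CPM, and reached 73 CPM in the Mx library. The ligand gene Dll1 and the effector gene Hes5 were called higher in the MNP. Dll1 had 2.97 and 13.2 CPM and Hes5 0.557 and 7.56 CPM, and Hes5 is also on the list of forebrain neuroepithelium.

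Early cartilage genes were called higher in the MNP in 3 cases. Sox9, the master regulator of cartilage, stood at 40.9 CPM in the LNP, 116 CPM in the MNP, 18.5 CPM in the Mx and 31.3 CPM in the Md library. The MNP level was the highest, 2.83-fold above the LNP level (interval 2.58 to 3.1). Col2a1, which encodes the main cartilage collagen, had 151, 416, 163 and 248 CPM in the same order, 2.76-fold apart between the nasal libraries (interval 2.63 to 2.89). Sox6, a partner of Sox9, was called at 27.2 and 68.2 CPM, while Sox5, its close relative, had 63.5 and 110.4 CPM and was not. Of 21 measured genes of cartilage and bone, 15 of which reached 5 CPM, 3 were called higher in the MNP and 1, Pax1, in the LNP. The median log2 difference was -0.52. The bone regulators Runx2 and Sp7 had 35.7 and 4.33 CPM in the LNP and 33.9 and 4.16 CPM in the MNP. Besides Col2a1, Col13a1 was called among the collagen genes, as the 1 called member of a list of 27 that does not hold Col2a1, at 4.27 and 12.1 CPM.

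Lens and pigment genes were among the furthest apart on the LNP side. Cryaa, a lens crystallin gene, stood at 12.7 CPM in the LNP, 0 in the MNP, 4.94 CPM in the Mx and 0 in the Md library. Against the 3 counts that 0 allows, it was at least 55.9-fold higher in the LNP than in the MNP. Cryba1, also a crystallin gene, had 5.13 and 0.454 CPM (11.3-fold, interval 4.98 to 31.7), and its next highest level was 1.23 CPM in the Mx library. Pmel, a structural gene of pigment granules, had 9.22 and 0.605 CPM (15.2-fold, interval 7.53 to 35.9). Trpm1, a channel gene of pigment cells and retina, had 6.93 and 0.908 CPM. Of 16 measured genes on the lens and eye list, 6 of which reached 5 CPM, 4 were called higher in the LNP and 0 in the MNP. The median log2 difference of the 16 was 1.73, and 0.46 over the list with no minimum level. The list summed to 79.9 CPM in the LNP, 40.1 CPM in the MNP, 36.8 CPM in the Mx and 33.7 CPM in the Md library. These sums include the 4 called genes, whose nasal levels entered the choice. Of the 31 genes 15 were at 0 in the MNP against 4 in the LNP library. Whether eye tissue had a part in the genes higher in the LNP was not tested. The other 63 of the 67 are not on this list.

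Neuronal and brain genes made up part of the MNP side. Of 28 measured neuronal genes, 22 of which reached 5 CPM, 12 were called higher in the MNP and 0 in the LNP. A lower level in the LNP was found for 27 of the 28, with a median log2 difference of -1.15. Dcx, a microtubule gene of young neurons, stood at 14.8 CPM in the LNP, 59.9 CPM in the MNP, 12.3 CPM in the Mx and 21.1 CPM in the Md library. Map2, a dendrite gene, had 50.7, 107, 59 and 37.3 CPM in the same order. In both cases the MNP library was the highest. The neurofilament genes Nefm and Nefl had 3.4 and 6.56 CPM in the LNP and 19.5 and 22.5 CPM in the MNP, and in the Mx library, at 20.6 and 22.1 CPM, they stood about as high as in the MNP. The other 8 called neuronal genes had between 1.3 and 12.9 CPM in the LNP and between 5.21 and 45 CPM in the MNP. Cntn2 and L1cam, adhesion genes of axons, had 11.6 and 11.3 CPM in the LNP and 45 and 24.8 CPM in the MNP. Ina and Mapt, cytoskeletal genes, had 4.03 and 7.98 CPM against 21.6 and 20.7 CPM. For the synaptotagmin genes Syt1 and Syt4 the levels were 2.23 and 1.3 CPM against 9.61 and 5.21 CPM. For Isl2, a homeobox gene of motor and sensory neurons, and Elavl3, an RNA-binding protein gene, they were 2.41 and 12.9 CPM against 11.3 and 27.6 CPM. All 8 were highest in the MNP library. Among forebrain genes, Sox1, a marker of neuroepithelium, had 0.742 and 8.02 CPM (10.8-fold, interval 5.93 to 21.6), and the POU gene Pou3f2 had 1.42 and 12.7 CPM (8.93-fold, interval 5.76 to 14.5). Its paralog Pou3f4 had 2.41 and 8.78 CPM. Of 18 measured forebrain genes, 12 of which reached 5 CPM, 5 were called higher in the MNP, with a median of -1.27.

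The homeobox gene En2, known from the boundary of midbrain and hindbrain, stood at 5.75 CPM in the MNP library and at 1 count, 0.0619 CPM, in the LNP library. The ratio was 93 (interval 16.2 to 3719). Cnpy1, its neighbour, had 0.619 and 7.57 CPM. Of 9 measured genes on the midbrain and hindbrain list, 4 of which reached 5 CPM, these 2 were called. Levels were lower in the LNP for 8 of the 9, and the median was -0.51. The olfactory pit genes had a smaller median difference than the neuronal and forebrain genes. Sp8, Fezf1 and Acsm4, which mark the pit and its early epithelium, had 22.1, 13.8 and 14.6 CPM in the LNP and 19.9, 16.2 and 18.9 CPM in the MNP. Only Dlx5 was called among the 20 measured genes of this list, 14 of which reached 5 CPM. A lower level in the LNP was found for 15 of the 20, and the median was -0.47. The list summed to 402.5 CPM in the LNP and 538.6 CPM in the MNP. The neuronal list summed to 480 CPM in the LNP, 911 CPM in the MNP, 478 CPM in the Mx and 447 CPM in the Md library, and the forebrain list to 229, 435, 180 and 174 CPM. Of the 30 neuronal list genes 1 was at 0 in the LNP and 0 were at 0 in the MNP library. Of the 268 genes called higher in the MNP, 22 are on a neural, brain or olfactory list and 246 on none. The lists are short, and the 246 hold further genes of neurons. Examples chosen after their values were seen are Slc17a6 and Gad2, which serve glutamate and GABA signalling, at 3.34 and 2.91 CPM in the LNP and 9.99 and 8.78 CPM in the MNP, and Kif1a, an axonal motor gene, at 31.2 and 68.3 CPM. The count of 22 is therefore a count of list members and not of all neuronal genes among the 268. It includes Dlx5, which is also on the list of first arch homeobox genes and was highest in the Md library, at 17.2 CPM. The part of nervous tissue in the result was not tested.

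**Figure D3:**
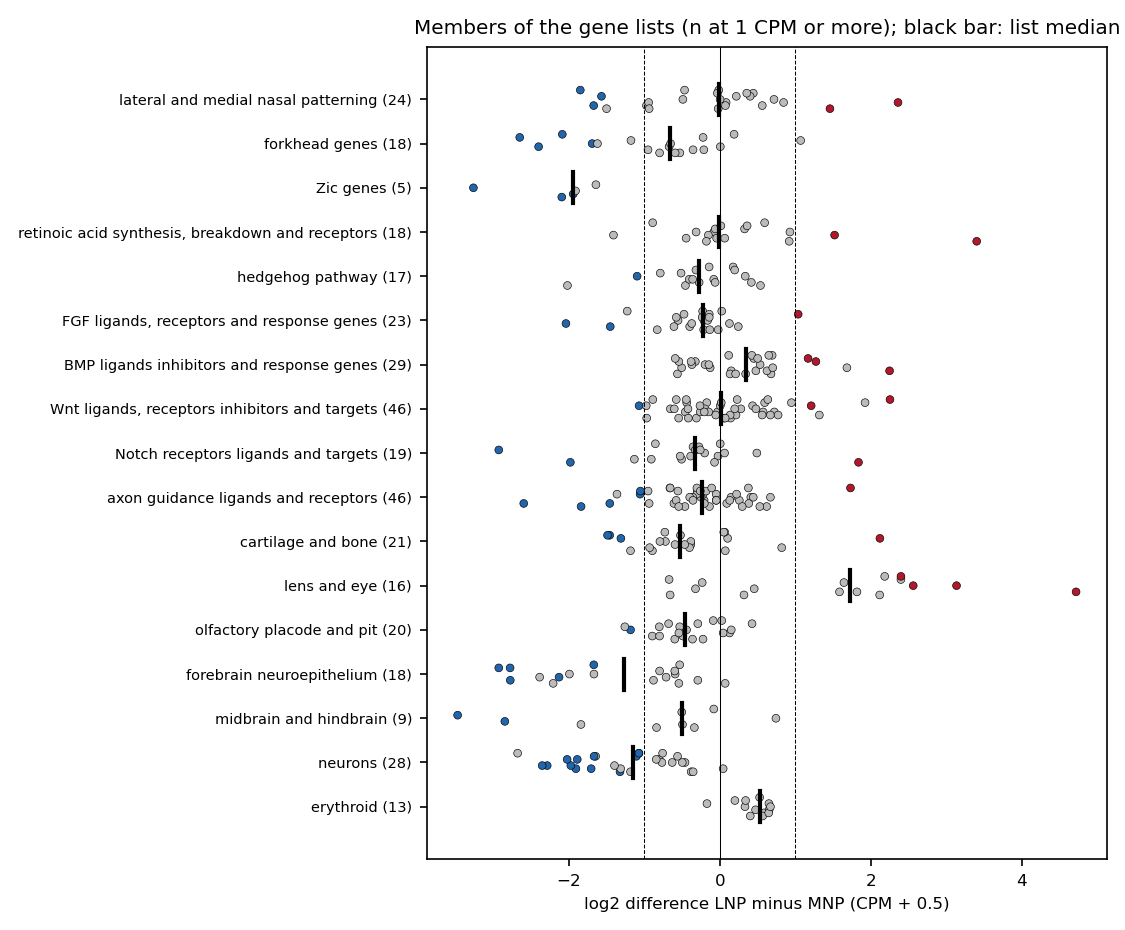
Log2 difference between the LNP and the MNP (CPM plus 0.5) for each member of 17 gene lists with at least 1 CPM in either library, with the number of such members in brackets. Red and blue points were called higher in the LNP and the MNP, dashed lines mark 2-fold and black bars the list medians, which run from -1.94 for Zic genes to 1.73 for lens and eye genes.

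The remaining genes furthest apart on the LNP side encode enzymes, receptors and signalling proteins. Hpgd, which encodes the enzyme that inactivates prostaglandins, stood at 48.1 CPM in the LNP, 8.78 CPM in the MNP, 42.8 CPM in the Mx and 14 CPM in the Md library. The LNP and Mx libraries were the high ones, and the nasal levels were 5.48-fold apart (interval 4.5 to 6.72). Prkcq, a protein kinase C gene, had 15.8 CPM in the LNP and at most 3.1 CPM in any other library. Il18rap, a subunit of the interleukin 18 receptor, and Calb2, the calcium-binding protein calretinin, had 5.51 and 5.63 CPM in the LNP and 0.605 and 1.21 CPM in the MNP. At higher levels, Ptn, the growth factor pleiotrophin, had 274 and 122 CPM in the nasal libraries, 289 CPM in the Mx and 273 CPM in the Md library. The MNP library was thus the low one. AW551984 and AI464131, which carry only a clone name, had 112 and 71.1 CPM in the LNP and 44 and 22.5 CPM in the MNP. Adamts1, a secreted metalloprotease gene, had 108 and 49.1 CPM. Mab21l2, a gene of eye and facial mesenchyme, had 90.8 and 42 CPM and reached 322 CPM in the Mx library.

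On the MNP side, the gene with the largest CPM was Flrt2, which encodes a membrane protein that binds FGF receptors and Unc5 receptors. It stood at 227 CPM in the LNP, 763 CPM in the MNP, 204 CPM in the Mx and 335 CPM in the Md library. The MNP library was the highest, 3.35-fold above the LNP library (interval 3.23 to 3.48). Its paralog Flrt3 lay on the other side just under the limit, at 188 and 93.7 CPM in the LNP and MNP. Asxl3 and Auts2, which encode chromatin regulators, had 131 and 83.1 CPM in the LNP and 305 and 173 CPM in the MNP. Fat3, an atypical cadherin gene, had 56.4 and 115 CPM. Of 46 measured axon guidance genes, 44 of which reached 5 CPM, 5 were called higher in the MNP and 1 in the LNP. Levels were lower in the LNP for 32 of the 46, with a median log2 difference of -0.24. Robo3 and Dcc, receptors of commissural axons, had 0.619 and 9.28 CPM in the LNP and 6.28 and 34.5 CPM in the MNP, and the receptor gene Epha8 lay the other way at 6.43 and 1.59 CPM. The semaphorin gene Sema5b and the repulsive guidance genes Rgma and Rgmb had 1.86, 11 and 11.9 CPM in the LNP and 5.98, 23.5 and 25.2 CPM in the MNP. Slc1a2, a glutamate transporter gene of glia, Onecut2, a neuronal homeobox gene, Tal2, a gene of midbrain neurons, and Vtn, the matrix protein vitronectin, were also among the 15 protein-coding genes furthest apart. They had 11.8, 16.4, 6.2 and 5.3 CPM in the MNP and 1.42, 2.54, 0.742 and 0.557 CPM in the LNP.

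**Figure D4:**
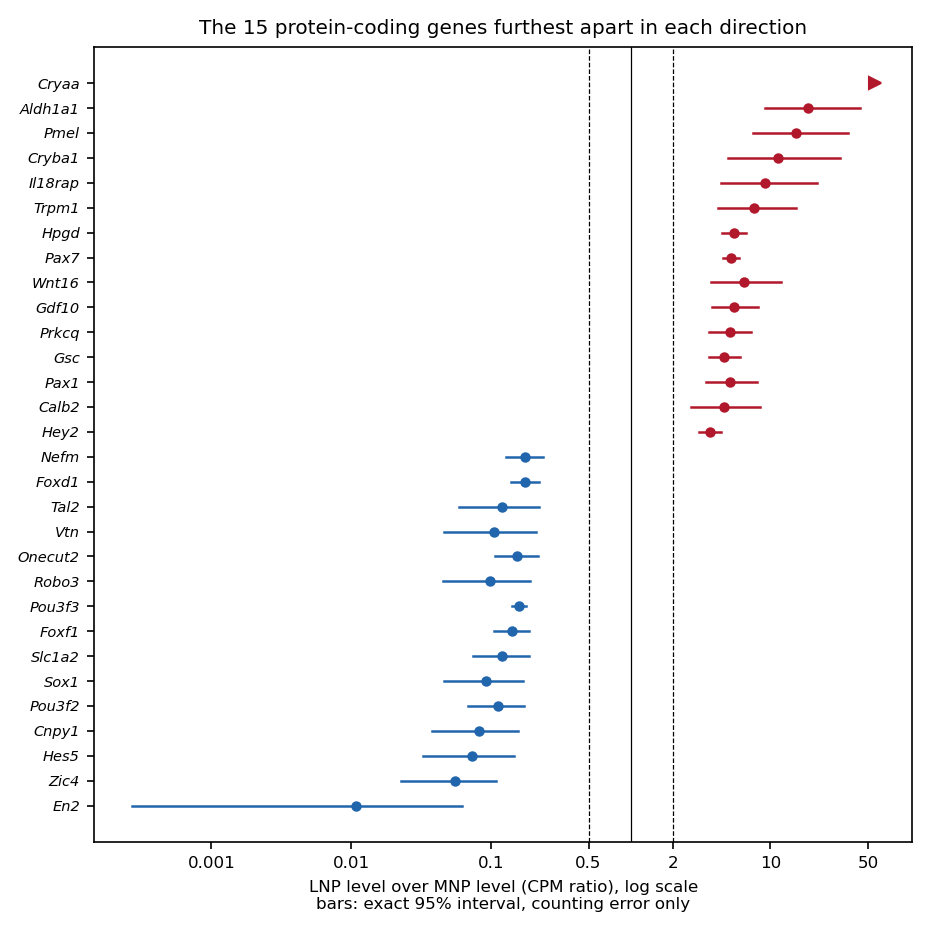
Ratio of the LNP to the MNP level (log scale) for the 15 protein-coding genes furthest apart in each direction, ordered by the log2 difference after 0.5 CPM was added, with exact 95% intervals for counting error only. The arrowhead for Cryaa marks the bound of 55.9-fold, and En2, with 1 count in the LNP library, has the widest interval.

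The Mx and Md libraries, which took no part in the choice, could lie nearer to either nasal library. Of the 67 genes higher in the LNP, 18 had both other levels nearer the LNP and 34 had both nearer the MNP level on the log2 scale, or 26.9% and 50.7%. Of the 268 higher in the MNP, 170 had both other levels nearer the LNP and 41 had both nearer the MNP level, or 63.4% and 15.3%. Over all 12163 tested genes these shares were 31.5% and 23.8%. The choice used both nasal levels, which are also the levels compared here, so the counts are a description and nothing is read from them. Pax7 and Aldh1a3 are examples of the 34 and Zic4 of the 170. Foxf1, Ptch1 and Shox2 are among the 41.

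Called genes that lie within 50 kb of each other formed 34 pairs, of which 31 had the same direction and 13 overlap. Of all pairs that the 327 called genes with a position can form, near or far, 67.7% have the same direction. The near pairs are not independent of each other, since Adgrb3 and the entries within it alone form several of them. Neighbours can share reads where they overlap. The library kit marks the strand, which does not separate overlapping genes of the same strand, such as Adgrb3 and the Gm37895 entry within it. Fendrr, a noncoding RNA gene, starts on the other strand 1275 bases from Foxf1 and had 0.804, 6.58, 2.14 and 8.11 CPM in the LNP, MNP, Mx and Md libraries. Its order of libraries was that of Foxf1, with the Md library highest and the LNP lowest. Pantr1, a noncoding RNA gene 925 bases from Pou3f3, had 3.03, 17.5, 24.6 and 4.17 CPM, and like Pou3f3 was highest in the Mx library. Foxd2os, 383 bases from Foxd2, had 3.71 and 8.02 CPM in the nasal libraries. The RefSeq starts that these Zic1 and Zic4 sequences precede lie 3204 bases apart on opposite strands, and their annotated spans overlap.

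Among neighbouring pairs of protein-coding genes, 9 of 12 had the same direction, against 65.6% of all pairs of called protein-coding genes. They include Dlx5 and Dlx6, homeobox genes of the first arch, with 2.78 and 4.08 CPM in the LNP and 6.96 and 9.31 CPM in the MNP. Their antisense neighbour Dlx6os1 had 10.2 and 36.3 CPM. Gjb2 and Gjb6, connexin genes named after their values were seen, are such a pair on the LNP side, at 11 and 5.69 CPM in the LNP and 2.88 and 2.04 CPM in the MNP. Grem1 stood against both of its neighbours. Fmn1, the formin gene beside it, had 3.3 and 8.31 CPM, and Scg5 on its other side had 3.53 and 9.004 CPM, both called higher in the MNP.

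Protein-coding genes were 89.6% of the genes called in the LNP direction and 79.5% of those called in the MNP direction, against 93.2% of all tested genes. Among the noncoding genes of the LNP side, Foxl2os, a transcript named after Foxl2, had 11.1 and 2.19 CPM and its highest level, 29.4 CPM, in the Mx library. Gm9866 had 9.53 and 2.35 CPM and stood lower in the other 2 libraries. Gm26870 had 12.5 and 5.45 CPM. On the MNP side, Mir124-2hg, the host gene of a neuronal microRNA, had 1.61 and 13.9 CPM, Gm53 had 0.681 and 7.94 CPM and Gm37834, which lies within Kcnmb2, had 1.05 and 10.7 CPM. Genes annotated as TEC, which means that the transcript is still to be experimentally shown, were 9.7% of the MNP calls and 1.43% of tested genes. Of these 26 genes 22 lie inside a protein-coding gene on the same strand, and all 13 of those host genes had a lower level in the LNP, 4 of them called. Host and entry can share reads and the entries were chosen by their levels, so the direction of the hosts is no independent result. Over all genes with at least 1 CPM, 8176 of 15691 were lower in the LNP.

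The counts of 14 called genes were uncertain, because expected and posterior mean counts lay 10% or more apart in a nasal library. Several have near-identical copies. Gm13370 and Gm10240, which are processed pseudogenes, were called in opposite directions, at 55.1 and 1.26 CPM in the LNP library, and had the same 14.2 CPM in the MNP library. The mitochondrial genes mt-Co3 and mt-Co2 were called in opposite directions too, at 289.9 and 81.8 CPM and at 15.2 and 33 CPM. The snRNA gene Gm24924 had 0 counts in 3 libraries and 24.2 CPM in the MNP library. Rpl30-ps9, a processed pseudogene, had 7.11 CPM in the LNP and 0 in the MNP library. Entries without a symbol were 1 of the LNP and 7 of the MNP calls.

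Genes that span more of the genome were more often on the MNP side. Over tested protein-coding genes the median log2 difference ran from 0.13 for spans under 10 kb to -0.28 for spans over 300 kb, and the share called higher in the MNP was 1.75% and 10.1% in these classes. In the LNP direction the shares were 0.53% and 1.33%. The median span was 61.0 kb for protein-coding genes called higher in the MNP, 27.1 kb for those called higher in the LNP and 26.8 kb for all tested protein-coding genes. The part of gene span in the calls was not tested.

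**Figure D5:**
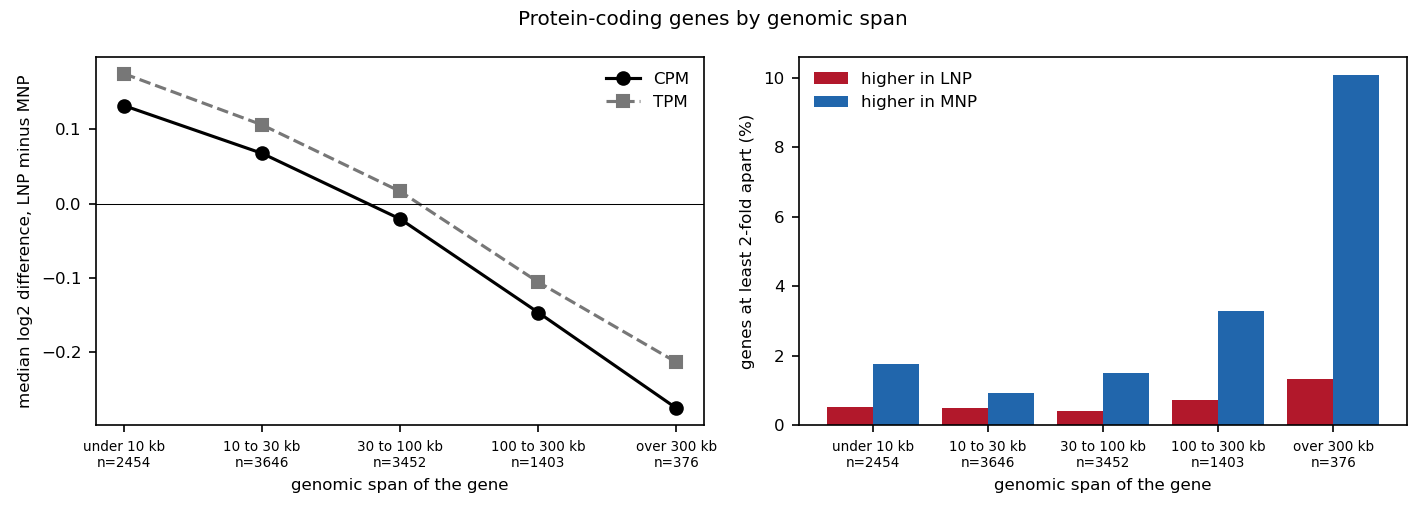
Tested protein-coding genes in 5 classes of genomic span. The left panel gives the median log2 difference between the LNP and the MNP from CPM and from TPM, and the right panel the share of genes at least 2-fold higher in either process, which reached 10.1% on the MNP side above 300 kb.

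Promoters of the called genes were described by short motifs on either strand of the 250 bases before the start. The RefSeq table held a promoter for 44 of the 67 LNP genes and 164 of the 268 MNP genes, and 27025 promoters in all. The 27025 include promoters of genes that did not reach 5 CPM, so they are not the promoters of the tested genes. The part of expression level in the differences below was not tested. The TFAP2 motif GCCNNNGGC, bound by the AP-2 factors of neural crest and ectoderm, was found in 38.6% of the LNP, 20.1% of the MNP and 13.5% of all promoters. The nuclear receptor half-site AGGTCA was found in 18.2%, 8.54% and 13.8%, the forkhead motif TGTTTAC in 2.27%, 3.05% and 3.06%, and the homeodomain motif TAATTA in 0 of the 44 LNP promoters, 3.66% of the MNP promoters and 4.91% of all promoters. The CCAAT box, CCAAT, stood in 38.6%, 37.8% and 34.5%. The median GC content was 59.2%, 59.6% and 52.0%, so that the called genes' promoters were richer in GC than all promoters, and the TFAP2 motif consists of G and C apart from its N positions. These matches are descriptions of letters, and binding was not measured.

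Near the limit, the members closest to it on the LNP side were Fgf10, St6galnac3, Ndnf, Aqp1 and Gm5611, with log2 differences of 1.04 to 1.07. The nearest genes outside were Gm10800, Flrt3, Gm20388, Gm23804 and Gm4724, at 0.993 to 0.999. On the MNP side, the named members nearest to the limit were Lsamp, Nol4 and 9130024F11Rik at -1.004 to -1.008, beside 2 entries without a symbol, and Slc35f2, Pclo, Trim66, Pgm2l1 and Negr1 lay just outside at -0.999 to -0.992. With the deposited TPM in place of CPM, all 335 genes had the same direction. TPM rest on the same reads, so this is no independent check. A 2-fold difference remained in 61 of the 67 LNP genes and 165 of the 268 MNP genes with TPM, and in 63 and 260 with the posterior mean count. When the minimum of 5 was applied to TPM itself, 105 genes were higher in the LNP and 159 in the MNP, so that the LNP share of calls was 39.8% instead of 20%.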

How the data were processed

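RNA of 4 facial processes (stage e11.5, wild type) was measured in 1 library each. The authors depleted ribosomal RNA, made stranded libraries, read 50 bases from a single end, aligned them to mm10 with STAR and quantified genes of GENCODE M4 with RSEM 1.4.1 (per the submitters' processing notes). The deposited expected counts and posterior mean counts are unscaled, and a read that fits several genes is split between them by RSEM. The deposited TPM values are corrected for transcript length.

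CPM were computed from the expected counts over 43346 mouse gene entries. The 96 spike-in entries held 0 counts, and 26248 entries that carry only a number were left out. Symbols and coordinates came from GENCODE M21 (GRCm38, the build of mm10) and matched 42462 entries. Ratios used unrounded counts, and exact (Clopper-Pearson) intervals used counts rounded to whole numbers.

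Genes named were the 5 markers, the 15 protein-coding genes furthest apart and the 10 with the largest CPM in each direction, the 5 noncoding genes furthest apart, the 5 nearest to the limit on either side, called members of 32 gene lists, and genes of the 6 signalling pathways, whose uncalled members were named in part and are otherwise covered by the counts of their list. Uncalled members of other lists were named after their values were seen. The results of 3 genes are not reported here. Members and lists were chosen with earlier results of these data known. The alternatives were TPM, posterior mean counts, TMM factors (edgeR 4.0.16), size factors (DESeq2 1.42.0), other pseudocounts, minimum levels and folds, and removal of uncertain counts. The call rule was tested on simulated counts that had counting error only. Changes were set in genes with a higher level than many of the called genes have. The simulation therefore gives no check on variation between embryos or on changed genes of low level. Computations used Python 3.11.15, SciPy 1.17.1, pandas 2.3.3 and R 4.3.3.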

Additional observations from a re-analysis of the deposited data

Results flagged for a closer look

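The files hold 26248 entries that carry only a number and no gene ID, which no comparison used. In the LNP library they held 4 counts in all, above the 3 counts that a count of 0 allows, which drew attention to them. The MNP library held 1 such count, and the Mx and Md libraries held 5 and 4, so the LNP value was not apart from the others. No group had replicates, and no sample was compared with others of its group.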

How the results depend on the processing

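With 1 library per process, no spread between embryos is known, and 3 counts set the lowest level that could be seen. Both counts of calls shifted over 1.5 times under some settings. The 5 marker genes kept their direction under the 6 scaling, unit and pseudocount settings they were recomputed with. These settings rescale the counts in which the markers were chosen as at least 2-fold apart, so the kept direction is no independent check. Of the recomputed marker values 3 moved and 27 did not. With TPM and a minimum of 5 TPM, 105 genes were higher in the LNP and 159 in the MNP, of which 38 and 70 are among the 67 and 268. A minimum of 1 CPM gave 144 and 568, a minimum of 20 CPM 25 and 78, no minimum 181 and 645, and a 3-fold limit 29 and 86. A pseudocount of 2 lowered the MNP count to 175, and an interval wholly beyond 2-fold left 144. The minimum, fold, pseudocount and interval settings act by construction, and the cause of the TPM shift was not tested. Under 9 other settings on the LNP and 7 on the MNP side, the counts stayed within 1.5 times, with 65 and 266 genes by posterior mean counts, 74 and 254 by TMM factors and 75 and 251 by DESeq2 size factors. Medians of 30 lists were recomputed under up to 8 settings each. Of the 238 values 4 moved beyond counting error, and 27 lists kept the sign of their median. The 3 lists that did not had medians within 0.015 of 0. T-box genes went from 0.012 to -0.03 with a pseudocount of 0.1, and nasal patterning and retinoic acid genes from -0.0065 and -0.015 to values up to 0.05 and 0.06, both with TPM. The lens and eye median was 0.46 with no minimum level and the midbrain and hindbrain median -1.67 with a minimum of 5 CPM. With TPM the log2 difference was 2.15 for Pax7 and -2.15 for Zic4. No paired analysis was possible because each process had 1 library.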

Other observations

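Calls on other lists of cell types and functions are given beside the number of genes that reached 5 CPM. Over all tested genes the called share was 0.551% in the LNP and 2.2% in the MNP direction. Erythroid genes had a median log2 difference of 0.53 between the LNP and the MNP, and 12 of 13 were higher in the LNP. Of the 11 that reached 5 CPM 0 were called. All 22 cytosolic ribosomal protein genes were higher in the LNP, with a median of 0.19. So were 21 of 26 cell cycle genes, with a median of 0.24. Of these lists 22 and 25 genes reached 5 CPM, and 0 were called. Endothelial genes had a median of -0.16, epithelial genes 0.06 and leukocyte genes -0.20. Of these lists 16, 23 and 2 genes reached 5 CPM, and 0 were called. Of 6 measured skeletal muscle genes, 1 reached 5 CPM. This was Ttn, called higher in the LNP at 28.5 and 12.1 CPM, against 538 CPM in the Md library. Its log2 difference was 1.2 with CPM and 0.36 with TPM. Of 7 measured Schwann cell precursor genes, 4 of which reached 5 CPM, 1 was called higher in the MNP, Fabp7. The list median was -0.70. Of 31 measured imprinted genes, 30 of which reached 5 CPM, 3 were called higher in the MNP. These were Dlk1, Zim1 and Magel2, at 46.1, 8.32 and 5.15 CPM against 20.9, 2.91 and 2.23 CPM. Their Md levels, 249, 92.2 and 30.5 CPM, were the highest of the 4 libraries. Of 13 measured proneural genes, 8 of which reached 5 CPM, 2 were called higher in the MNP, Myt1 and Olig2. The list median was -0.63. Of the pituitary and notochord lists 1 and 2 genes were measured, of which 1 and 0 reached 5 CPM, and 0 were called. Xist, the RNA of the inactive X chromosome, had 1190 CPM in the LNP and 1640 CPM in the MNP library, and the Y-linked genes Ddx3y, Eif2s3y, Kdm5d and Uty had between 22.2 and 39.7 CPM in both.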
